A study of Mus musculus with 32 samples.

Results

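The 8 genes described here, Dct, Tyrp1, Tyr, Pmel, Mlana, Mitf, Kit and Sox10, are the usual markers of pigment cells in mouse skin, and they were taken by name from the 19970 gene names counted in the series. Each was read in 32 bulk CEL-seq2 libraries, which reads transcripts at their 3′ end, as CPM (the count scaled to a common library total of gene counts). All libraries came from skin of the strain Bl/6. There were 3 libraries of hair follicles in anagen, the growth phase (anagen follicles), and 3 of anagen and telogen follicles together, telogen being the resting phase (mixed follicles). Organoids are three-dimensional cultures of epidermal cells, and 23 libraries held all their cells without a sort for cell type. The organoid libraries comprised 5 taken at passage 0, 7 days into culture (unpassaged), 12 from passages 7 to 12, within 3 months (early), and 6 from passages 23 to 30, within 6 months (late). The culture additions were Forskolin alone, Forskolin with Fgf10, with Fgf1 or with a TgfB inhibitor, or the inhibitor alone, and all 6 late libraries had Forskolin and Fgf1. The reference from tissue was interfollicular epidermis in 3 libraries, sorted for the surface proteins Itga6 and Sca1, so cells outside that gate were not in it. No label gives the age, sex or number of animals, or ties replicates to different mice or cultures, so the p-values rest on a spread between libraries that may be technical.

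Melanocytes make melanin in organelles called melanosomes and pass them to keratinocytes. In mouse back skin they lie in the hair follicle, where they make pigment while the hair grows and stop when the follicle regresses; the interfollicular epidermis of haired skin holds few. Tyr, tyrosinase, catalyses the first step of melanin synthesis; Dct and Tyrp1 are related enzymes of later steps. Pmel forms the fibrils on which melanin is laid down, and Mlana is a small melanosome membrane protein. Mitf is the transcription factor that drives these genes, Sox10 acts upstream of it, and Kit is the receptor through which melanocytes receive stem cell factor.

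Mitf binds the M-box, an E-box motif, in promoters of the pigment enzymes, so the promoters that carry these letters are shown. Of the 8 genes, Dct, Tyrp1, Tyr, Mitf and Kit had entries in RefSeq's promoters (8 entries, GRCm38.p6, 250 bases before and 50 from the gene's start); Pmel, Mlana and Sox10 are named only. The letters TCATGTG, searched on both strands and including the shorter CATGTG, were found in the entries of Tyrp1, Tyr and Dct and not in those of Kit and Mitf. Among all 32851 promoters of the same 300 bases, 3.77% held TCATGTG, 14.2% CATGTG and 7.15% CACGTG, which was in none of the 8 entries. The 250 bases before each start are given 5′ to 3′ on the gene's strand, with TCATGTG or its reverse complement CACATGA in capitals. A match is a description of these letters and not evidence of binding.
Tyrp1, chr4:80833963-80834212, + strand: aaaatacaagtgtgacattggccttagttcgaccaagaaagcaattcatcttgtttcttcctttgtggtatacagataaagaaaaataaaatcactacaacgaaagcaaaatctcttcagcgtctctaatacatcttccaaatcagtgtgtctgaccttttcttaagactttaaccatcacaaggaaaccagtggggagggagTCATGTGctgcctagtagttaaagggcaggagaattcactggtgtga
Tyr, chr7:87493513-87493762, - strand: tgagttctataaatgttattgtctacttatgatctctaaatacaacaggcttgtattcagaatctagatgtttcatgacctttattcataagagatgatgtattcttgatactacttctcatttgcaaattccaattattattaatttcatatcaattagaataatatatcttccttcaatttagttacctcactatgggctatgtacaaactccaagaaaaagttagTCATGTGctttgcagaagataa
Dct, chr14:118052247-118052496, - strand: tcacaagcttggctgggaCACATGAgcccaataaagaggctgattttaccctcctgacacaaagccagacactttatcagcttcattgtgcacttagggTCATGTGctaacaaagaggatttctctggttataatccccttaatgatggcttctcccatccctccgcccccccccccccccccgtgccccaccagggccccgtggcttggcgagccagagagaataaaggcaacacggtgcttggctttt
The match began 47 bases before the start in Tyrp1 and 22 bases before it in Tyr; Dct held a pair, 151 bases before the start and, on the reverse strand, 232 bases before it. These starts are RefSeq's; that of Tyrp1 lies downstream of GENCODE's, so its match is inside the gene as GENCODE annotates it. In GENCODE M21 on GRCm38 all 8 are protein-coding genes, at chr14:118012790-118052244 for Dct, chr4:80834123-80851719 for Tyrp1, chr7:87424771-87493512 for Tyr and chr10:128704195-128720238 for Pmel. The others lie at chr19:29697824-29708634 for Mlana, chr6:97807052-98021349 for Mitf, chr5:75574916-75656722 for Kit and chr15:79154908-79165240 for Sox10.

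Anagen follicle libraries held 1520797 to 2057589 gene counts, those of mixed follicles 1385192 to 3351435, organoid libraries 412582 to 3127190 and sorted epidermis libraries 469839 to 739531. Each tissue group came from count tables of its own, marked by identical gene lists, so table and tissue cannot be told apart. Among anagen libraries replicate 3 stood apart: of 10627 genes with a mean of at least 2 CPM, 78.0% were lowest in it and 7.43% were more than 10-fold below the mean of the other two. Mixed replicate 3 also stood apart from its group, by the chi-square per degree of freedom, which rises as 2 libraries differ more. It was 64.6 and 83.01 for mixed replicate 3 against replicates 1 and 2, and 19.9 between those. In anagen follicles it was 72.5 and 76.8 for replicate 3, and 19.05 between replicates 1 and 2. Beside the folds and pooled values of anagen follicles, what changes without anagen replicate 3 is also given. Pooled values were not taken without mixed replicate 3. Mitf was the 1 gene of the 8 with a line in the tables of all 32 libraries, at 0 counts in some organoids; a gene without a line was taken as 0.

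The pigment enzymes were counted in every follicle library, except Tyrp1 in anagen replicate 3 and Tyr in mixed replicate 3. Dct was at 97.7, 82.9 and 4.62 CPM in anagen replicates 1, 2 and 3, and at 32.2, 45.1 and 26.0 CPM in mixed replicates 1, 2 and 3. Anagen replicates 1 and 2 lay above every mixed library and replicate 3 below every one. Tyrp1 was at 13.6, 5.92 and 0 CPM in anagen follicles and at 2.15, 5.37 and 1.44 CPM in mixed follicles. Its order was the same as that of Dct, with both ends of the range in anagen. Tyr was at 5.83, 1.97 and 1.03 CPM in anagen follicles, against 3.58, 2.98 and 0 CPM in mixed follicles, which overlap.

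Of the melanosome proteins, Pmel was at 30.1, 25.0 and 2.05 CPM in anagen follicles and at 18.6, 28.9 and 7.22 CPM in mixed follicles, again with the lowest value in anagen replicate 3. Mlana was at 10.2, 3.29 and 2.57 CPM in anagen follicles and at 0.716, 1.49 and 0.722 CPM in mixed follicles. It was the 1 gene of the 8 whose groups did not overlap, which held for 21.3% of the 18157 genes with a count in these 6 libraries. It rests on 31 counts in anagen follicles and 7 in mixed follicles, and without a filter on low counts its log2 fold change of 1.68 had an adjusted p of 0.444 (quasi-likelihood test in edgeR, Benjamini-Hochberg adjusted).

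Mitf, Sox10 and Kit each ordered the 6 follicle libraries differently from Dct. Mitf was at 111, 73.6 and 60.5 CPM in anagen follicles and at 46.6, 73.1 and 74.4 CPM in mixed follicles. The ranges overlap, and anagen replicate 3, at 4.73% of replicate 1 in Dct, was at 54.4% of it in Mitf. Sox10 was at 15.1, 3.29 and 3.08 CPM in anagen follicles and at 15.04, 15.8 and 15.2 CPM in mixed follicles. The mixed libraries were nearly equal, anagen replicate 1 was level with them, and the other anagen libraries were lower. Kit was at 68.0, 36.2 and 7.70 CPM in anagen follicles and at 15.04, 10.7 and 1.44 CPM in mixed follicles; anagen replicate 3 alone fell within the mixed range.

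**Figure D1:**
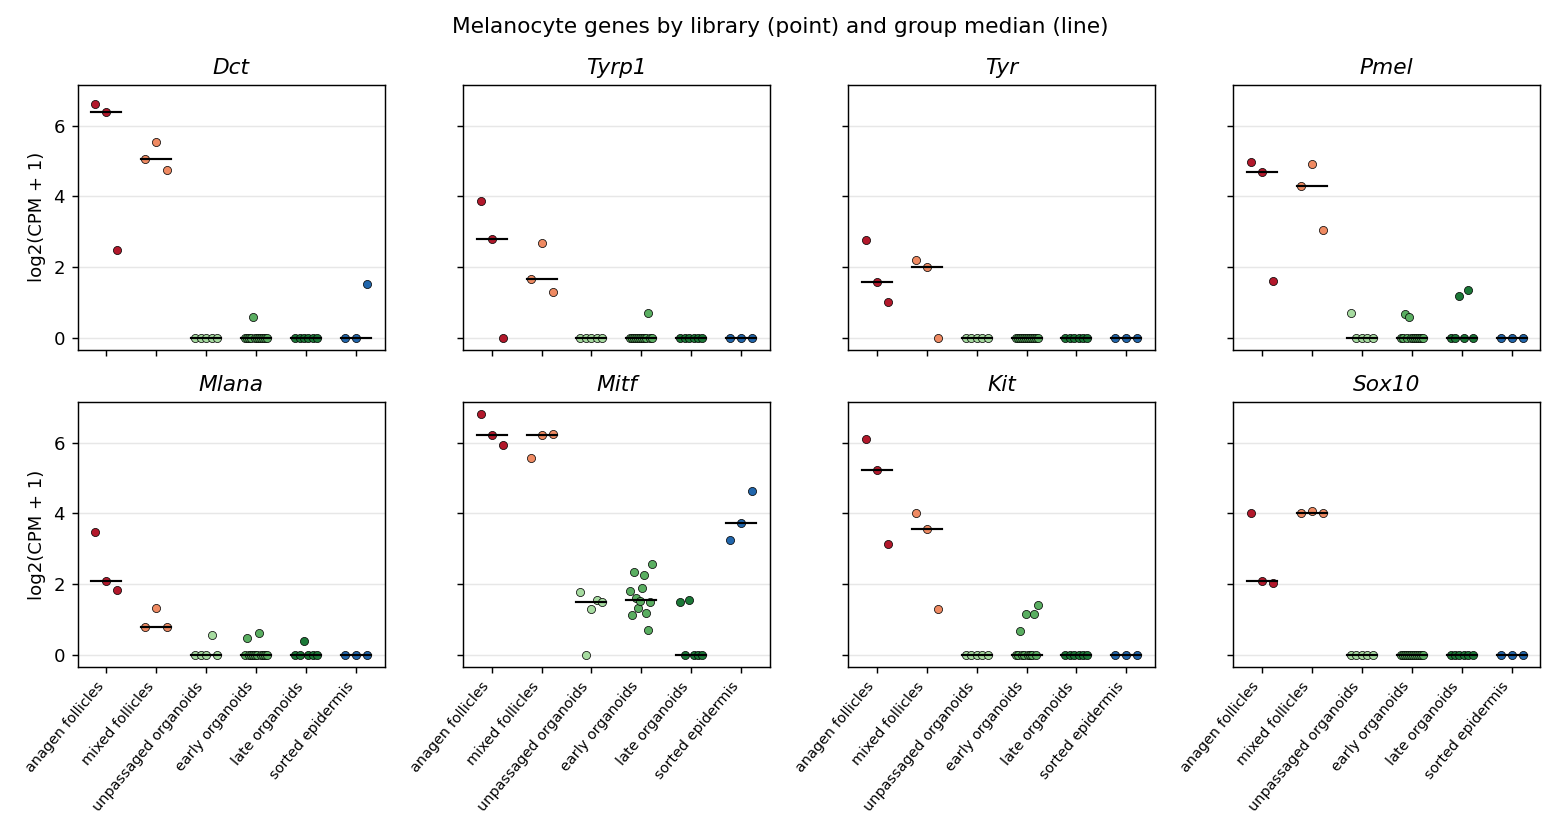
Level of each melanocyte gene, as log2(CPM + 1), in every library (points) with the group median (line), for anagen and mixed follicles, unpassaged, early and late organoids and sorted epidermis. The 5 pigment genes and Sox10 are at or near 0 outside the follicles, while Mitf lies at 8.51 to 24.05 CPM in epidermis and at 0 to 4.97 CPM in organoids.

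Of the 8 genes, 5 (Dct, Pmel, Mitf, Kit and Sox10) passed the filter on low counts, and none of them differed between anagen and mixed follicles at an adjusted p under 0.05, where 6.63% of the 10843 genes tested did (1.21% higher and 5.42% lower in anagen follicles). The log2 fold changes of anagen over mixed follicles were 0.01 ± 0.63 for Dct and -0.65 ± 0.63 for Pmel (± SE, n = 3 libraries each, edgeR). For Mitf the log2 fold change was -0.35 ± 0.47, for Kit 1.37 ± 0.68 and for Sox10 -1.82 ± 0.64. Adjusted p-values from edgeR's quasi-likelihood test were 1 for Dct, 0.615 for Pmel, 0.731 for Mitf, 0.301 for Kit and 0.146 for Sox10. Sox10 alone had an unadjusted p under 0.05 (0.018), as had 2187 of all genes, and its 95% interval ran from -3.26 to -0.39. For Dct the interval, -1.37 to 1.39, admits a difference of more than 2-fold in either direction, so a p that misses the threshold does not show equal levels.

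These folds depend on the scaling. With edgeR's TMM factors (1.21, 1.10 and 0.575 in anagen replicates 1 to 3, against 0.707, 0.791 and 0.411 in mixed replicates) the median of all genes was 0.09. When libraries were scaled by their totals alone it was 0.64, and Dct, Mitf and Pmel stood at 0.83, 0.34 and 0.04, which turns the sign of Mitf and Pmel. Relative to the median of all genes, Dct was then 0.19 above it, against 0.08 below it with TMM. Of all genes called, 18.2% were higher in anagen follicles with TMM and 42.8% with library totals. Leaving out anagen replicate 3 gave log2 fold changes of 0.46 for Dct, -0.24 for Pmel, -0.53 for Mitf, 1.70 for Kit and -1.71 for Sox10, none of them called.

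**Figure D2:**
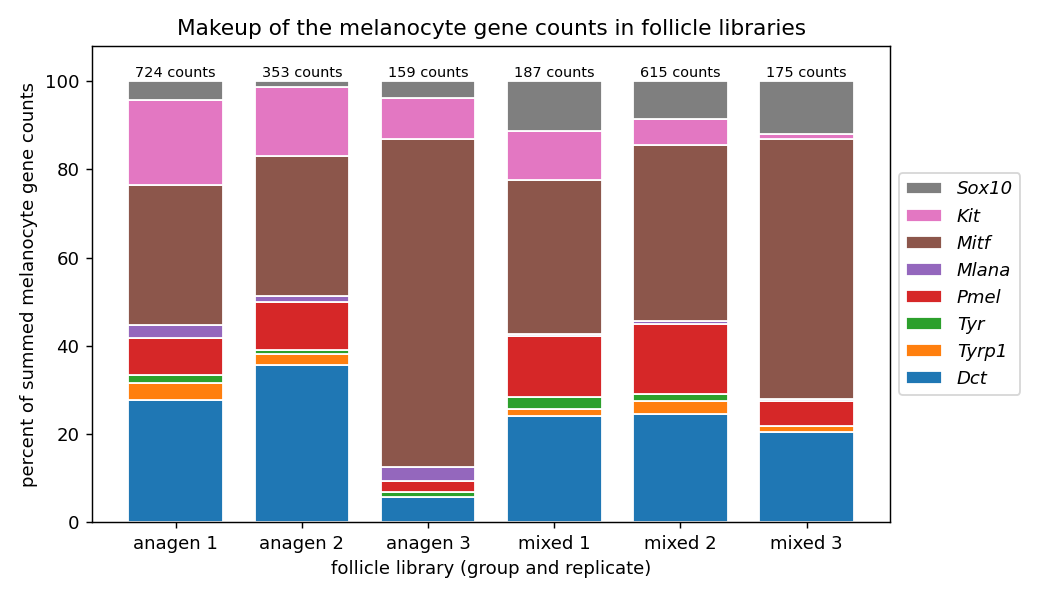
Share of each melanocyte gene in the summed counts of the 8 genes, in percent, for the 3 anagen and the 3 mixed follicle libraries, with the summed count above each bar. Mitf takes 74.2% in anagen replicate 3, against 31.6% and 31.7% in the other anagen libraries, and 34.8%, 39.8% and 58.9% in the mixed libraries.

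The share of the pigment genes beside Mitf differed among follicle libraries, which does not depend on scaling. Mitf was also counted in sorted epidermis, at 8.51 to 24.05 CPM with Kit and Sox10 at 0. How much of the follicle Mitf came from melanocytes was not tested. Counts are of 3′ ends and were not scaled by transcript length, so each share is compared between libraries and not between genes. The 5 pigment genes made up 58.6%, 61.8% and 14.5% of the counts of these genes plus Mitf in anagen replicates 1, 2 and 3 (Wilson 95% intervals 54.4 to 62.6, 56.1 to 67.2 and 9.58 to 21.3). In mixed replicates 1, 2 and 3 they made up 55.2%, 53.4% and 32.2% (intervals 47.0 to 63.0, 49.1 to 57.6 and 25.3 to 40.0). Replicate 3 of each follicle group was the lowest of its group, beyond the counting error, which is all that intervals and floors cover here.

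Markers of other cells also differed between follicle libraries. Anagen replicate 3 held the lowest summed level of the 5 basal keratinocyte markers, 341 CPM against up to 2334 CPM in the other anagen libraries, and of the 8 fibroblast and dermal papilla markers, 34.9 CPM against up to 510 CPM. Its 7 hair matrix and inner root sheath markers summed to 31850 CPM, the lowest of an anagen range that reached 48022 CPM, with all 7 counted in each anagen library. In mixed follicles those 3 lists summed to 7373 to 13807 CPM for basal keratinocytes, 887 to 1920 CPM for fibroblasts and 7792 to 16126 CPM for hair matrix. Basal keratinocyte markers (3 of 5) and fibroblast markers (4 of 5 tested) were called lower in anagen than in mixed follicles, as were 5.42% of all genes tested. Their part in the melanocyte gene levels was not tested. In bulk samples fewer melanocytes and less RNA per melanocyte cannot be told apart.

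Kit and Sox10 are also used by other cells of skin, Kit by mast cells and Sox10 by Schwann cells. The 7 mast cell markers summed to 0.513 to 3.29 CPM in anagen follicles and 4.33 to 8.95 CPM in mixed follicles, with 1 to 2 and 4 to 6 of the 7 counted. The 8 Schwann and glial markers summed to 14.4 to 18.5 CPM in anagen follicles and 24.5 to 32.2 CPM in mixed follicles, with 5 to 7 and 4 to 7 of the 8 counted. The part of mast cells in the Kit level and that of Schwann cells in the Sox10 level were not tested.

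In sorted epidermis the pigment genes were all but absent. Dct had 1 count, in replicate 3, and Tyrp1, Tyr, Pmel, Mlana, Kit and Sox10 had 0 counts in all 3 libraries, which at the summed total allows up to 1.71 CPM for each. Mitf was the exception, at 8.51, 12.2 and 24.05 CPM from 4, 9 and 13 counts. The 5 pigment genes together had 1 count beside 26 of Mitf, 3.70% of their sum (Wilson 95% interval 0.657 to 18.3), against 525 beside 459 in anagen follicles, 53.4%, and 410 beside 413 in mixed follicles, 49.8%. Without anagen replicate 3 the share in anagen follicles was 59.7%. Mitf was thus counted in all 3 epidermis libraries with 1 pigment gene count among them, and anagen replicate 3, at 14.5%, lay within the epidermis interval.

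The 5 genes tested were all called higher in anagen follicles than in epidermis, where 34.2% of all genes were called, 19.4% higher and 14.8% lower in anagen follicles. They had passed the filter through their follicle counts, so the count of 5 carries no weight of its own. Mitf, the member counted in both groups, had a log2 fold change of 2.95 ± 0.54 (SE, adjusted p = 0.000541, edgeR), and its summed counts gave a ratio of 5.59 (exact 95% interval 3.77 to 8.65). For Dct the ratio of CPM over summed counts was 106 (19.0 to 4214). Against the floor of 3 counts over the summed epidermis total, Kit was at least 22.2-fold higher in anagen follicles, Pmel at least 11.0-fold, Sox10 at least 4.43-fold, Tyrp1 at least 3.90-fold, Mlana at least 3.27-fold and Tyr at least 1.79-fold. Without anagen replicate 3 these ratios and bounds were 1.15 to 1.54 times as large, at 159.9 (28.5 to 6335) for Dct and at least 6.03-fold for Tyrp1. The 5 genes tested were then still called higher, Mitf with a log2 fold change of 2.73. Between these groups 7 of the 8 genes did not overlap, all but Tyrp1, as for 15.5% of the 16939 genes with a count. Where epidermis had 0 counts, any count in each anagen library was enough for this. Tyr was included from 12, 3 and 2 counts, so the 7 of 8 carries no weight of its own. Scaled by library totals, 38.1% of the genes called were higher in anagen follicles, against 56.6% with TMM and 45.9% with upper quartile scaling, and all 5 genes kept their direction.

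Mixed follicles differed from epidermis in the same genes, sharing the epidermis libraries with the comparison above. Mitf had a log2 fold change of 3.30 ± 0.55 (SE, adjusted p = 0.000289, edgeR) and a ratio of summed CPM of 4.53 (3.05 to 7.02). For Dct the ratio was 66.2 (11.8 to 2626), and Pmel was at least 12.7-fold, Sox10 at least 9.04-fold, Kit at least 5.61-fold, Tyrp1 at least 2.19-fold and Tyr at least 1.43-fold higher in mixed follicles. The summed level of Mlana, 1.14 CPM, was under the epidermis floor, so no fold is given. All 5 genes tested were called higher, against 30.3% of all genes called, 18.5% higher and 11.9% lower in mixed follicles, with the same limit from the filter. Of the genes called, 60.9% were higher in mixed follicles with TMM, 22.3% with library totals and 47.4% with the upper quartile. Ranges did not overlap for 7 of the 8, all but Tyr, against 11.8% of the 17183 genes with a count. Where epidermis had 0 counts, 1 count in each mixed library was enough for this. Mlana was included from 1, 5 and 1 counts, so the 7 of 8 carries no weight of its own.

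The epidermis gate was checked against the marker lists. Basal keratinocyte markers summed to 30159 to 32530 CPM in epidermis, all 5 counted, and hair matrix markers to 18.5 to 24.3 CPM, with 2 of 7 counted. Langerhans and antigen-presenting markers summed to 211 to 375 CPM, with all 5 counted, so cells other than keratinocytes left counts in these libraries. Schwann and glial markers reached 48.1 to 83.01 CPM, mostly Mbp (46.2 to 74.5 CPM), with 2 of 8 counted and Sox10 at 0. How far the gate set the melanocyte gene levels was not tested.

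**Figure D3:**
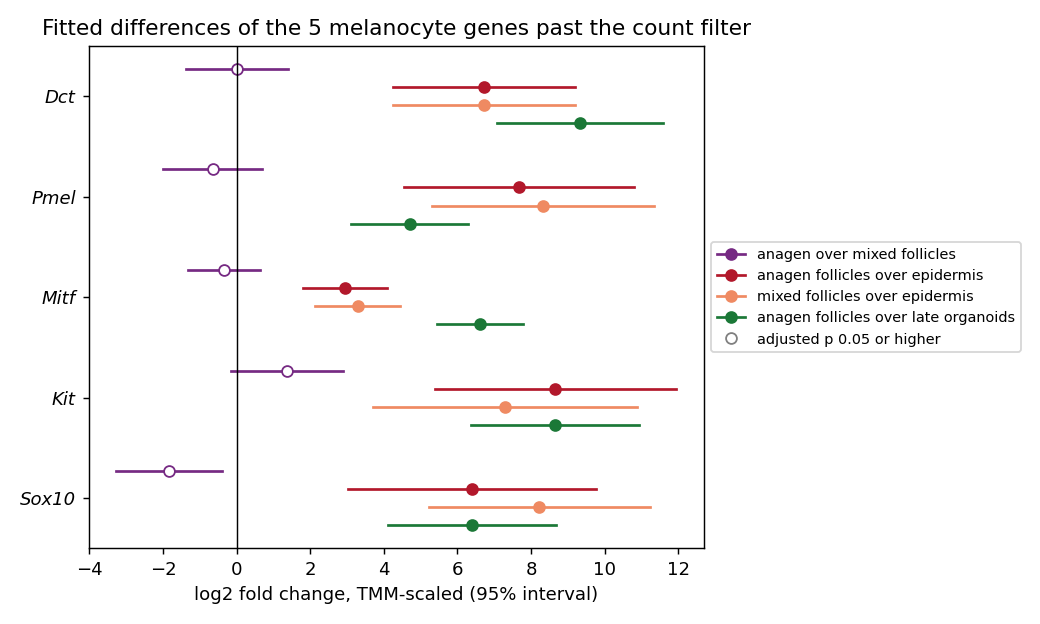
Fitted log2 fold changes (points, TMM-scaled) with 95% intervals for the 5 melanocyte genes past the count filter in 4 comparisons. Open points, at an adjusted p of 0.05 or higher, are those of anagen over mixed follicles; where epidermis or late organoids had no counts (Kit and Sox10 in both, Pmel in epidermis, Dct in late organoids) the fitted size depends on edgeR's prior count and is no measure of the fold.

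Organoids held almost no pigment cell transcripts. The 5 pigment genes had 14 counts in all among 35581405 gene counts of 23 libraries, spread over 9 libraries, a pooled 0.393 CPM (exact 95% interval 0.215 to 0.660), against 94.98 CPM (87.0 to 103) in anagen follicles, or 141 CPM (129 to 154) without replicate 3, and 66.9 CPM (60.5 to 73.7) in mixed follicles. By stage there were 2 counts in the 5 unpassaged libraries, 6 in the 12 early ones and 6 in the 6 late ones. Late replicate 3, the deepest, held 5 of the 6 late counts, 4 of Pmel and 1 of Mlana, and late replicate 5 held 1 of Pmel. Tyr and Sox10 had 0 counts in every organoid library, which allows up to 0.0843 CPM. Kit had 7 counts, 1 to 2 in each of 4 early libraries with Fgf10 or the inhibitor, and 0 in all unpassaged and late libraries. Over all organoids Kit was thus 193-fold higher in anagen follicles by summed CPM (92.1 to 486), and Sox10 at least 90.1-fold, or 277-fold (132 to 698) and at least 119-fold without anagen replicate 3.

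Mitf was at a low level. It had counts in 18 of 23 organoid libraries and never more than 7, at 0 to 2.45 CPM in unpassaged (median 1.80), 0.616 to 4.97 CPM in early (median 1.93) and 0 to 1.92 CPM in late organoids (median 0). All 23 organoid libraries lay below all 3 epidermis libraries in Mitf, as was so for 6.10% of the 18389 genes with a count. Late organoids were at 1.80, 0, 1.92, 0, 0 and 0 CPM in replicates 1 to 6, against 8.51, 12.2 and 24.05 CPM in epidermis, and were lower by a log2 fold change of -3.67 ± 0.66 (SE, n = 6 and 3 libraries, adjusted p = 0.00076, edgeR). Mitf was the 1 of 3 genes tested there that was called, beside 21.8% of all genes, 9.53% being lower and 12.2% higher in late organoids. It rests on 7 counts against 26, and when those 2 groups were fitted alone Mitf did not pass the filter. Scaled by library totals, 46.9% of all genes called were higher in late organoids, against 56.2% with TMM.

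Anagen follicles were set against late organoids in the same fit. All 5 genes tested were called higher in anagen follicles, with 45.8% of all genes called, 24.6% higher and 21.2% lower, and the filter again passed them through the follicles. Mitf had a log2 fold change of 6.62 ± 0.55 (SE, adjusted p = 1.6e-07, edgeR) and a ratio of summed CPM of 77.8 (37.5 to 195). Pmel, with 5 late counts, had a log2 fold change of 4.70 ± 0.74 (SE, adjusted p = 0.000143, edgeR) and a ratio of 24.7 (10.2 to 77.6). Dct was at least 133-fold, Kit at least 83.1-fold, Sox10 at least 16.6-fold, Tyrp1 at least 14.6-fold and Tyr at least 6.73-fold higher in anagen follicles, and Mlana 36.8-fold (6.13 to 1500), from 31 counts and 1. Without anagen replicate 3 the bounds were at least 199.9-fold for Dct and 22.6-fold for Tyrp1, the log2 fold changes 6.44 for Mitf and 5.11 for Pmel, and all 5 genes were still called. Of all genes called, 53.7% were higher in anagen follicles with TMM and 43.6% with library totals.

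None of the 8 genes passed the filter in the comparisons among organoids, early over unpassaged and, among early ones, Forskolin with the inhibitor over Forskolin with Fgf10 or over the inhibitor alone. With no filter, Mitf had a log2 fold change of 0.89 for early over unpassaged organoids (adjusted p = 0.495, edgeR). Forskolin, which raises cyclic AMP and induces Mitf in cultured melanocytes, was in all but the libraries with the inhibitor alone. Early organoids with Forskolin and the inhibitor had 2, 7, 3 and 1 counts of Mitf, and those with the inhibitor alone had 2 and 6. The unfiltered log2 fold change between them was -0.74 (adjusted p = 0.931, edgeR), and a difference was not detectable at this depth.

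Other genes of melanocytes and pigmentation, a list of 27, moved in both directions; many of them serve lysosomes and transport in all cells. Of 19 that passed the filter, 0 were called higher and 3 lower in anagen than in mixed follicles, beside 1.21% higher and 5.42% lower of all genes tested, with a median log2 fold change of 0.08 against 0.09 over all genes. Against epidermis 6 were higher and 4 lower in anagen follicles, beside 19.4% and 14.8% of all genes, with a median of -0.12 against 0.15. Higher were Slc7a11, a cystine transporter needed for yellow pigment, Atp7a, which loads copper into tyrosinase, Dtnbp1, a subunit of a complex that sorts cargo to melanosomes, Gpnmb, a glycoprotein related to Pmel, Myo5a, the motor that carries melanosomes, and Ap3d1, a subunit of a sorting adaptor. Their log2 fold changes of anagen follicles over epidermis were 6.82, 2.93, 2.48, 2.15, 1.53 and 0.87 in that order, with adjusted p-values of 0.00128, 0.00324, 0.000595, 0.0486, 0.00155 and 0.0449 (edgeR). Lower were Rab38, Rab27a, Hps4 and Rab32, trafficking genes of melanosomes and related organelles, at -3.73 to -1.68.

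Slc7a11 ordered the follicle libraries as Dct did, but it did not follow the pigment genes outside the follicles. Many genes share an order over 6 libraries, and Pmel itself was at place 316 by Spearman correlation with the pigment gene mean. The shared order thus does not set Slc7a11 apart. Slc7a11 was at 96.7, 91.4 and 5.13 CPM in anagen follicles and at 27.2, 50.4 and 7.22 CPM in mixed follicles, with anagen replicate 3 lowest as for Dct. In organoids, where Dct had 1 count, it was at 12.2 to 105 CPM in unpassaged, 40.3 to 133 CPM in early and 20.1 to 284 CPM in late ones, against 0, 1.35 and 0 CPM in epidermis. Late organoids were higher than epidermis in it by a log2 fold change of 7.41 ± 1.35 (SE, adjusted p = 0.000889, edgeR).

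The 3 genes lower in anagen than in mixed follicles were Rab27a, the small GTPase that ties melanosomes to Myo5a, Rab38, which helps deliver Tyrp1, and Bloc1s3, of the same complex as Dtnbp1; a count this small is named whole. Rab27a was at 1.94, 1.32 and 0.513 CPM in anagen follicles and at 75.9, 88.0 and 62.1 CPM in mixed follicles, with no overlap and a log2 fold change of -6.47 ± 0.96 (SE, adjusted p = 0.000271, edgeR). In epidermis it was at 27.7, 6.76 and 11.1 CPM, where Dct was all but absent. For Rab38 the log2 fold change was -2.64 (adjusted p = 0.00142) and for Bloc1s3 -2.73 (adjusted p = 0.0467, edgeR). Of genes largely kept to pigment cells, Mc1r, the receptor for melanocortins, was at 6.32, 2.63 and 0 CPM in anagen follicles and at 5.01, 10.1 and 7.94 CPM in mixed follicles, and had 0 counts in epidermis and in early and late organoids. Slc45a2, Trpm1, Oca2, Gpr143 and Slc24a5 stayed under the filter, at up to 7.89 CPM in anagen follicles.

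**Figure D4:**
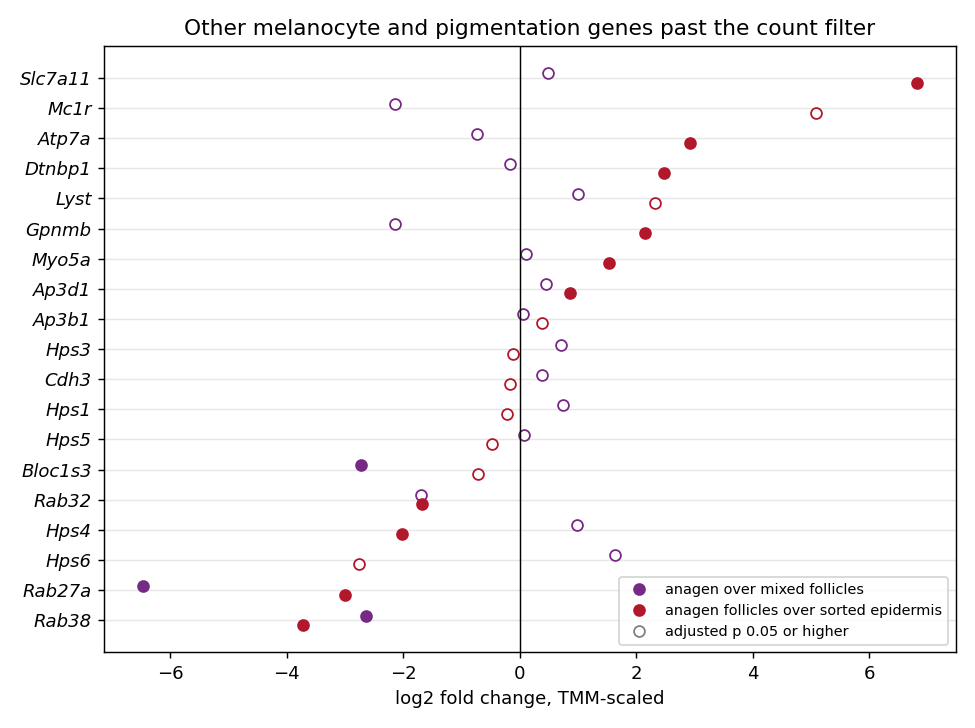
Fitted log2 fold changes (TMM-scaled) of the 19 other melanocyte and pigmentation genes past the count filter, for anagen over mixed follicles (purple) and anagen follicles over sorted epidermis (red); open points have an adjusted p of 0.05 or higher. Slc7a11 is the highest against epidermis at 6.82, and Rab27a the lowest against mixed follicles at -6.47.

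Of 9 transcription factors of the melanocyte lineage, 4 passed the filter, and none was called between anagen and mixed follicles. Against epidermis Lef1, a Wnt effector also active in the hair matrix, and Tfap2a, a factor of neural crest and epidermis, were higher in anagen follicles, with log2 fold changes of 7.77 and 1.07 (adjusted p = 0.000811 and 0.017, edgeR). Snai2, a factor of neural crest and basal keratinocytes, was lower, at -2.41 (adjusted p = 0.0077, edgeR). The median of the 4 was 0.54, against 0.15 over all genes, of which 19.4% were called higher and 14.8% lower. Pax3, which acts on Mitf with Sox10, was at most 2.57 CPM in anagen follicles and 1.43 CPM in mixed follicles.

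Of 9 signals that reach melanocytes, 6 were in the files and 4 passed the filter, none of them called between the follicle groups. Foxn1, a keratinocyte factor that marks the cells receiving pigment, was higher in anagen follicles than in epidermis (log2 fold change 4.496, adjusted p = 0.000104, edgeR), and Adam17, a protease that sheds Kit ligand, was lower (-1.25, adjusted p = 0.00675, edgeR). Kitl, the ligand of Kit, looked at after its values were seen, was at 30.6, 15.1 and 0.513 CPM in anagen follicles and at 3.58, 13.4 and 3.61 CPM in mixed follicles. Anagen replicate 3, with 1 count of Kitl, was the lowest of the 6 follicle libraries in both Kitl and Dct. Among anagen libraries it was also the lowest for 78.0% of the 10627 genes with a mean of at least 2 CPM. In both genes it was more than 10-fold below the mean of the other anagen libraries, as for 7.43% of those genes. Whether Kitl and Dct are linked was not tested. The log2 fold change of Kitl, anagen over mixed follicles, was 0.35 ± 0.96 (SE, adjusted p = 0.881, edgeR).

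Across the 32 libraries and with the 8 members set aside, the genes most like the mean log2(CPM + 1) of the 5 pigment genes, among 10946 genes with a mean of at least 2 CPM, were Ptgds, Hoxd10, Dclk3, Lgr5, Fam26e, Hoxd11, Tgm6 and Krt25. Their Pearson correlations ran from 0.97 to 0.94. Of these 8 genes 1, Tgm6, was also among the 8 nearest by Spearman correlation, so the list depends on the measure. Among the members, parts of that mean or not, Dct (0.98) and Pmel (0.98) stood above the 8 by Pearson correlation. Kit was at place 10, Sox10 at place 35 and Mitf at place 214. Ptgds, a prostaglandin D2 synthase, was at 28.7, 19.1 and 4.10 CPM in anagen follicles, at 10.03, 13.7 and 5.78 CPM in mixed follicles and at 0 in epidermis. Lgr5, a stem cell receptor of the follicle, was at 67.1, 38.8 and 1.03 CPM in anagen follicles and at 6.45, 10.7 and 12.3 CPM in mixed follicles. Krt25, an inner root sheath keratin, was at 11852 to 22322 CPM in anagen follicles and 3073 to 6228 CPM in mixed follicles. A gene counted in follicles and not elsewhere scores high by that alone, and the 32 points share tissue and source table.

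Within the 6 follicle libraries the nearest were Sumo3, Ackr3, Snrpg, Siah1a, Timm9, Timm22, Tm9sf3 and Nudt3, at Pearson correlations of 0.999 to 0.996. Of these, 1 was among the 8 nearest by Spearman correlation. Those 8 were all tied at a correlation of 1, so that overlap carries no weight. Among the nearest by Pearson correlation are Snrpg, of the spliceosome, and Timm9, of mitochondrial import. Sumo3 was at 46.2 to 198 CPM in anagen follicles and 60.6 to 121 CPM in mixed follicles. By Pearson correlation the members ranked behind them: Tyrp1 at place 70 of 10671 genes, Dct at 828, Kit at 2639, Mitf at 5895 (correlation 0.60) and Sox10 at 8320 (0.33). By Spearman correlation Dct and Tyrp1 were in the same tie at 1, and Pmel, at 0.943, was at place 316. Kit was at 1469, Mitf at 6460 and Sox10 at 8106. With 6 libraries many genes tie by rank, so that place does not set Dct and Tyrp1 apart.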

How the data were processed

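The study measured RNA from follicles, sorted epidermis and organoids by CEL-seq2 on a NextSeq500, per the labels' protocols. The submitters' processing notes name BWA 0.6.2-r126 and the build mm10. How reads were counted, on which annotation, and whether molecular identifiers were used is not given in the sources used here. As deposited, the files, hold whole-number counts per gene, 1 file per library, not normalized by the authors. They fell into 11 tables with identical gene lists.

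The members and gene lists were chosen with earlier results of these data known. CPM is a gene's count over the library's total without spike-in rows, and a gene not listed counts as 0. Tests used R 4.3.3 and edgeR 4.0.16. Genes were kept by filterByExpr (minimum count 10 and total 15 by group), libraries scaled by TMM, and p-values of the quasi-likelihood test adjusted over all genes by Benjamini-Hochberg, called at 0.05. One fit held 17 libraries, those of both follicle groups, of epidermis, and of passaged organoids given Forskolin and Fgf1, so these groups share 1 estimate of the spread. Passaging (16 libraries, medium as a term) and early media (18 libraries) were fitted apart. The fit of 17 libraries was also run on simulated counts with 200 changed genes. Those counts had otherwise the same means in all groups and a common dispersion, so they do not vouch for the fits to these data. Floors are 3 counts over a group's summed total; intervals are at 95%. Named genes were the 8 members and, from each other list, up to 6 genes called for anagen over mixed follicles or over epidermis, by mean CPM in anagen follicles, plus the 8 most alike by Pearson correlation. Over 38 replicate pairs the chi-square per degree of freedom was 4.06 to 83.01, a spread beyond counting error that may be technical. Each library was taken as 1 replicate, and this spread cannot show that libraries are independent. Alternatives were RLE, upper quartile and library total scaling (the last chosen after seeing the data), no filter, DESeq2 1.42.0, the 2 groups alone, a replicate block and leaving out each replicate. Pooled ratios were also taken without anagen replicate 3, which was chosen after seeing the data, and not without mixed replicate 3. Tables were made with pandas 2.3.3 and scipy 1.17.1 in Python 3.11.15.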

Additional observations from a re-analysis of the deposited data

Results flagged for a closer look

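In groups of 4 to 6 organoid libraries, 5 of 11 gene and group pairs with any count held a library flagged as far above the others. Each is a library with 1 or 2 counts beside libraries with none. Such a library is flagged whatever its level, so the number of flags cannot be set against chance. Dct was at 0.501 CPM in replicate 3 of early organoids with Forskolin and Fgf10, from 1 count. In early organoids with Forskolin and the TgfB inhibitor, replicate 4 held Tyrp1 at 0.616 CPM from 1 count and Kit at 1.23 CPM from 2 counts, and replicate 2 held Mlana at 0.537 CPM from 1 count. Mlana was at 0.320 CPM in replicate 3 of late organoids, from 1 count. All lie under the floor of 3 counts in their library.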

How the results depend on the processing

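Of 23 gene and comparison pairs among the 8 genes that were tested, the 16 called kept their call and direction in every alternative that gave a value, and the 7 not called were never called. Signs turned only for anagen over mixed follicles, none called: Dct (main log2 fold change 0.01) was at -0.055 with RLE, -0.013 without a filter, -0.070 with DESeq2 and -0.25 with the replicate block, and between -0.37 and 0.46 when 1 replicate was left out. Mitf was at 0.34 and Pmel at 0.042 with library totals, and Mitf at -0.67 to 0.11 without 1 replicate. When only the 2 groups compared were fitted, fewer genes passed the filter, and each of the 8 that passed it was called. The count called higher was 1 for anagen follicles over epidermis, 3 for mixed follicles over epidermis and 1 for anagen follicles over late organoids. For late organoids over epidermis Mitf did not pass, 0 were called lower, and 1377 genes were called in all. Without a filter 8 were called higher for anagen follicles over late organoids, 7 for anagen follicles over epidermis and 6 for mixed follicles over epidermis. The share of all genes called was not set beside these counts, which carry no weight of their own. Genes called for anagen over mixed follicles numbered 719, 400 to 662 without 1 replicate (400 without anagen replicate 2, 439 and 458 without mixed replicates 2 and 3), and 2360 for late organoids over epidermis, 1296 to 2547 without 1 replicate (1406, 1296 and 1528 without epidermis replicates 1, 2 and 3). No label pairs samples by replicate number. Deviations from the group means correlated at -0.11 to 0.22 between libraries of the same number. Libraries of different numbers were not compared, so pairing cannot be decided. A replicate block called 1056 genes for anagen over mixed follicles. TMM-scaled over all libraries, mixed follicles averaged 54.8 CPM of Dct, 112 of Mitf and 25.8 of Sox10, against 34.4, 64.7 and 15.3. The causes were not tested. Depth limits epidermis most: 0 counts there allow up to 1.71 CPM.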
